A study of Homo sapiens with 18 samples.

Results

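The genes for peptide presentation on MHC class I were examined by bulk ATAC-seq (Omni-ATAC, in which a transposase inserts sequencing adaptors into open chromatin) in fibroblasts of the human colon, the established line Ccd18-Co. The 9 genes were HLA-B, HLA-C, HLA-E, HLA-F, B2M, TAP1, TAP2, PSMB8 and NLRC5. A peak was a member when it overlapped the body of 1 of these genes or the 5 kb upstream of its start in GENCODE release 44 (hg38). This rule found 52 of the 334857 peaks in the table. NLRC5 held 38 of them, of which 23 lay in introns, 12 touched exons and 3 lay upstream. The 14 others were 3 peaks of TAP2, 2 each of HLA-B, HLA-F, B2M and TAP1, and 1 each of HLA-C, HLA-E and PSMB8. No peak was shared between members.

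Cells display peptides from their own proteins on MHC class I, where cytotoxic T cells read them. HLA-B and HLA-C are classical heavy chains, HLA-E and HLA-F are non-classical ones, and B2M is the light chain that all of them share. PSMB8 is a catalytic subunit of the immunoproteasome, which cuts the peptides, and TAP1 and TAP2 form the transporter that carries them into the endoplasmic reticulum. NLRC5 is the transactivator of this set and acts at class I promoters through factors bound to conserved boxes, including the CCAAT-type Y box. The promoters of the pathway are known targets of NF-kB and of interferon regulatory factors.

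The 18 libraries formed 3 groups of 6. Unstimulated cells received no cytokines. The other groups received 3 pulses of TNF, OSM and IL-17A (10 ng/ml each) and IL-1β (0.1 ng/ml), each pulse lasting 72 h with 96 h of recovery, then rested for 1 week and were given DMSO (the DMSO group) or 250 nM belinostat, a histone deacetylase inhibitor (the belinostat group), for 5 days. Nuclei were collected 2 weeks later, so the libraries describe a late state and not the acute response. Doses follow the labels. The study's own text differs from them in places for belinostat and IL-1β. All libraries come from a single line, and the labels do not say whether replicates were separate cultures. The study's methods state a constant DMSO dilution for all treatment groups, and the labels do not say whether that includes the unstimulated cells. If replicates were not separate cultures, the p-values measure technical spread only. In bulk libraries, fewer cells with an open site and less accessibility per cell cannot be told apart.

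Promoter sequences are shown for members whose start peaks carry the comparisons, because these peaks sit on them. They come from the 250 bases before the RefSeq start (GRCh38.p14), of which the longest stretch outside every UTR annotated in GENCODE is given. Of the 9 members, 7 had an entry. HLA-E and NLRC5 had none. Capitals mark matches, on either strand, to GGGNNTTCC (NF-kB), GAAANNGAA (interferon-stimulated response element, ISRE) or CCAAT (Y box), and overlapping matches run together.
HLA-B promoter (chr6:31357294-31357429, minus strand): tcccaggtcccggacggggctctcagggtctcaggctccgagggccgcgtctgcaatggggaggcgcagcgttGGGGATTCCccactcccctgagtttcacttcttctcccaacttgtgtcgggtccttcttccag
HLA-C promoter (chr6:31272106-31272342, minus strand): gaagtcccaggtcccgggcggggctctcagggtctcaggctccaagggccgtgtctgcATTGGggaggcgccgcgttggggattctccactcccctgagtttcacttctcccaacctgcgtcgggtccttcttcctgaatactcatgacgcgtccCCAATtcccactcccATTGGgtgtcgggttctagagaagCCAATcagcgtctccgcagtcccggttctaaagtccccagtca
B2M promoter (chr15:44711324-44711508, plus strand): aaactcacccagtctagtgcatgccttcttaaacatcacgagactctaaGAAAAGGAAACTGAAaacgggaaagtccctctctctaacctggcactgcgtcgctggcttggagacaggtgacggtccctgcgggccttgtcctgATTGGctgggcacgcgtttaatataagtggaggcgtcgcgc
TAP1 promoter (chr6:32853817-32853954, minus strand): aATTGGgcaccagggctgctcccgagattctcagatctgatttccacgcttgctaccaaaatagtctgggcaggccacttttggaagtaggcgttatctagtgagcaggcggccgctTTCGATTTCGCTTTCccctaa

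In the whole 250 bases, printed or not, Y box words recurred at the class I heavy chains, with 3 matches before HLA-B, 4 before HLA-C and 2 before HLA-F, against 1 each at B2M and TAP1. HLA-B carried an NF-kB word 177 bases before its start. B2M carried a pair of overlapping ISRE words, 144 and 138 bases before the start, and TAP1 had the same arrangement at 133 and 127 bases. Single ISRE words stood 155 bases before HLA-F and 58 bases before TAP2, while the outer PSMB8 promoter held none of these 3 words. The window of a second PSMB8 start further in held an NF-kB word 164 bases and an ISRE word 3 bases before that start, and B2M also had an NF-kB word from 4 bases before its start. Over 34796 RefSeq promoters of 300 bases (250 before and 50 after the start), 6.55% held the NF-kB word, 8.11% the ISRE word and 34.6% the Y box word. A match is a description of letters and not evidence of a bound factor.

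Counts in peaks ranged from 7077321 to 11352032 per unstimulated library, from 6488975 to 8066642 per DMSO library and from 4661678 to 6370845 per belinostat library. DMSO libraries did not differ detectably from unstimulated ones (two-sided exact permutation test, p = 0.0758), and belinostat libraries were shallower than DMSO libraries (p = 0.00216, the smallest this test can give). Libraries also differed in how counts were spread: the 10000 strongest peaks held 36.8% ± 1.25 of the counts without stimulation, 33.1% ± 1.28 after pulses and DMSO, and 30.9% ± 2.22 after pulses and belinostat (SD, n = 6 each). Within groups, unstimulated library 6 (39.0%), DMSO library 3 (35.2%) and belinostat library 1 (34.5%) had the highest shares. Start peaks of 5 fibroblast markers (COL1A1, COL1A2, COL3A1, DCN, PDGFRB) lay at 9.54 to 65.3 CPM per kb in unstimulated cells. Those of the epithelial, immune, endothelial and smooth muscle markers that had a start peak (EPCAM, CDH1, CD3E, PECAM1, VWF, MYH11, DES) lay at 1.42 to 5.64. In the DMSO group MYH11 (7.9) lay above DCN (6.33), and in the belinostat group below it (7.98 and 9.03). THY1 and PTPRC had no start peak.

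Each of the 9 genes had an open peak at its start in all 3 groups. The peak over each gene start, called the start peak, was among the strongest 5% of all peaks for 8 of the 9 genes, and the 9 start peaks together held 70.1% of the counts in the 52 members. Levels are CPM, that is, counts scaled to library size, with the sizes adjusted by TMM (trimmed mean of M values), and between genes they are compared per kb of peak. In unstimulated cells the TAP2 start peak was highest at 58.2 ± 7.6 CPM per kb (SD, n = 6), above the range of all others. TAP1 (39.6 ± 3.7), HLA-C (38.7 ± 3.9), PSMB8 (33.5 ± 1.3), B2M (33.3 ± 3.0), HLA-E (32.0 ± 2.1) and NLRC5 (31.6 ± 3.5) followed in that order, and from HLA-C on each overlapped the range of the peak above it. HLA-F (15.3 ± 1.0) and HLA-B (14.0 ± 3.0) were lowest and overlapped each other. HLA-B needs a note: GENCODE starts the gene 10.1 kb upstream of the centre of a stronger peak, chr6:31356267-31357657, which holds the RefSeq promoter shown above and measured 24.9 ± 2.7 CPM per kb. It was named after its values were seen and is called the HLA-B promoter peak. TAP2 stayed highest and HLA-F and the HLA-B start peak stayed lowest in the DMSO and belinostat groups.

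The cytokine contrast, DMSO minus unstimulated, asks what the pulses had left behind. A peak was called opened or closed at an adjusted p under 0.05 (edgeR quasi-likelihood test with TMM, Benjamini-Hochberg over all peaks, which also applies to every adjusted p here). Of the 52 members, 10 closed and 6 opened. Over all peaks, 9.73% closed and 9.51% opened. The closed members were mainly start peaks, of which 8 of 9 closed. Beside them, 52.8% of the 14542 start peaks of protein-coding genes closed, and 79.1% of the strongest 5% of peaks. The median log2 fold change of the 9 was -0.36, beside -0.33 over all start peaks and -0.37 over the strongest 5% of peaks.

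Among heavy chains, the HLA-C start peak (chr6:31271192-31272436) measured 43.3, 48.4 and 56.5 CPM in unstimulated libraries (lowest, median and highest), 32.0, 37.0 and 40.7 in DMSO and 29.5, 35.6 and 44.3 in belinostat libraries. All DMSO libraries lay below all unstimulated ones, and the level fell by 0.40 ± 0.10 on the log2 scale (SE, adjusted p = 0.00466). The HLA-B promoter peak measured 29.2, 35.2 and 40.1 CPM in unstimulated, 19.8, 25.9 and 32.9 in DMSO and 21.5, 25.4 and 32.5 in belinostat libraries, a fold change of -0.42 ± 0.11 (adjusted p = 0.00385) with overlapping groups. The weaker HLA-B start peak (chr6:31366751-31367451) gave 7.13, 9.33 and 12.5 CPM unstimulated, 5.54, 7.56 and 8.43 with DMSO and 5.55, 7.24 and 11.8 with belinostat. Its change of -0.41 ± 0.14 (adjusted p = 0.0293) was no longer called without unstimulated library 1, 3 or 6 or DMSO library 4 or 5.

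The non-classical HLA-E, a ligand of NK cell receptors, had 35.6, 36.6 and 42.4 CPM at its start peak (chr6:30489165-30490338) in unstimulated, 25.4, 28.9 and 35.1 in DMSO and 24.9, 27.6 and 35.3 in belinostat libraries. The unstimulated libraries stood above all stimulated ones, and the change was -0.34 ± 0.11 (adjusted p = 0.0153), not called without unstimulated library 6 or DMSO library 4. HLA-F (chr6:29722992-29724406) was the exception among start peaks: 19.3, 22.1 and 23.2 CPM unstimulated, 15.5, 18.6 and 20.8 with DMSO and 15.7, 18.1 and 20.5 with belinostat, with a change of -0.25 ± 0.11 that did not pass (adjusted p = 0.0953).

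The B2M start peak (chr15:44710927-44712244, which also overlaps PATL2) measured 39.2, 43.0 and 50.4 CPM in unstimulated, 31.4, 34.6 and 40.2 in DMSO and 27.7, 32.9 and 43.5 in belinostat libraries. It fell by 0.33 ± 0.11 (adjusted p = 0.0209), a call lost without unstimulated library 1 or 6 or DMSO library 1, 2 or 4. A small intronic peak of B2M just downstream (chr15:44712538-44712816) fell most of the 52 members: 5.05, 5.60 and 7.62 CPM unstimulated against 2.96, 3.70 and 4.52 with DMSO. The groups did not overlap (-0.69 ± 0.17, adjusted p = 0.00189).

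Both transporter genes closed at the start. TAP1 (chr6:32853022-32854676, a peak that also lies in PSMB9) went from 56.2, 66.9 and 73.4 CPM unstimulated to 44.3, 49.8 and 59.1 with DMSO and 40.2, 47.9 and 51.4 with belinostat, with a cytokine change of -0.35 ± 0.10 (adjusted p = 0.00939). TAP2 (chr6:32838118-32839012) went from 42.8, 51.4 and 62.8 to 36.4, 39.8 and 49.2 and then 31.9, 35.6 and 45.9 CPM (-0.36 ± 0.10, adjusted p = 0.00941, not called without unstimulated library 6). PSMB8 (chr6:32843909-32844951, overlapping PSMB8-AS1 and PSMB9) had no overlap with unstimulated libraries in either stimulated group. Its unstimulated libraries held 33.2, 34.8 and 36.7 CPM, its DMSO libraries 22.2, 24.1 and 32.3 and its belinostat libraries 19.5, 22.7 and 29.9 (-0.47 ± 0.11, adjusted p = 0.00134). The NLRC5 start peak (chr16:56989308-56989939) measured 16.6, 19.5 and 22.7 CPM unstimulated, 11.6, 14.4 and 18.3 with DMSO and 10.9, 13.7 and 21.3 with belinostat (-0.40 ± 0.12, adjusted p = 0.0119).

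**Figure D1:**
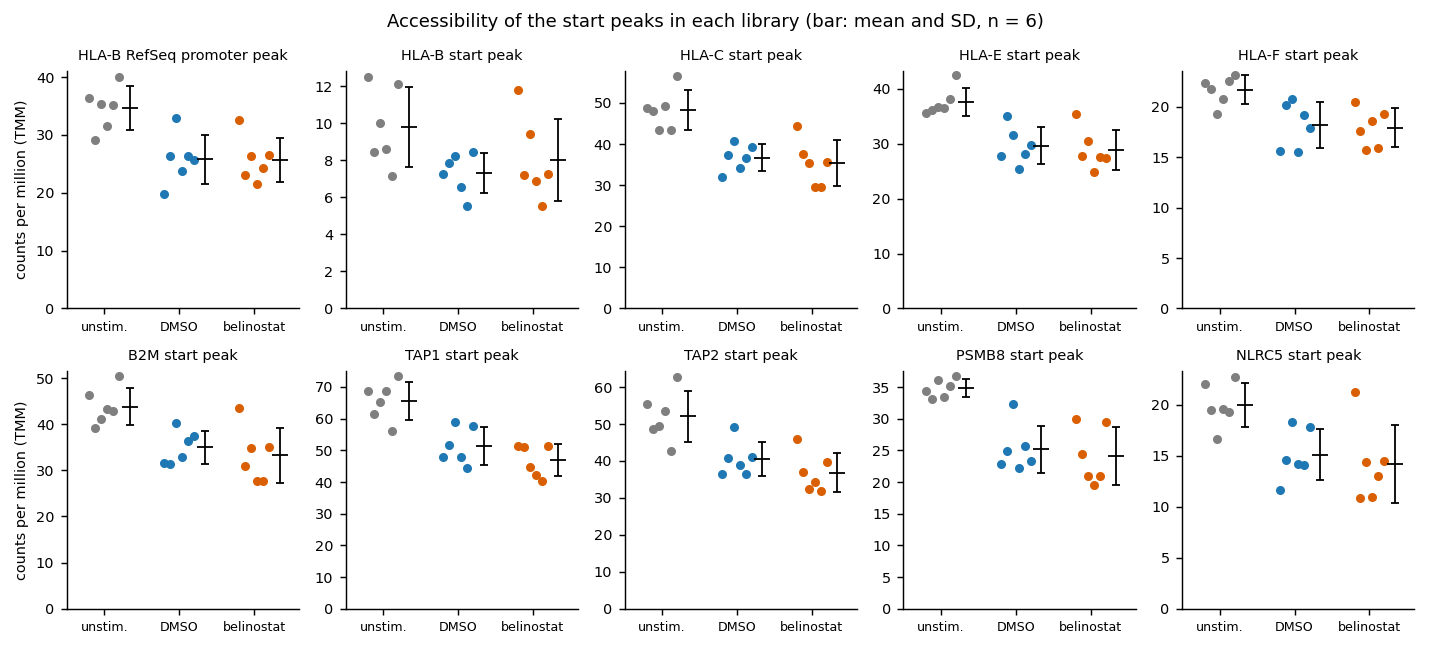
CPM (y axis, TMM-scaled, from 0) in each library (points) at the start peaks and the HLA-B promoter peak, by group (x axis), with mean and SD (bars, n = 6). Unstimulated libraries are higher on average in every panel, while DMSO and belinostat libraries cover much the same range; belinostat library 1 is the highest of its group in 9 of 10 panels.

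The library with the highest share of counts in the strongest peaks was also the highest of its group in most of these panels: unstimulated library 6 in 9 of 10, DMSO library 3 in 8 of 10 and belinostat library 1 in 9 of 10. The part of this spread of counts in the fall of the start peaks was not tested directly, but loess offsets, which remove each library's trend with peak strength, give the same comparison without it. With them the cytokine changes of the 9 start peaks lay between -0.10 and 0.10, with a median of 0.04. None of the 52 members was called (edgeR with loess offsets; at an unadjusted p under 0.05, 6 were higher and 2 lower), beside 2.00% of all peaks opened and 1.91% closed. From these counts, a fall of the start peaks and the general fall of strong peaks cannot be told apart. The intronic B2M peak kept a change of -0.45 ± 0.15, with an adjusted p of 0.0735.

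**Figure D2:**
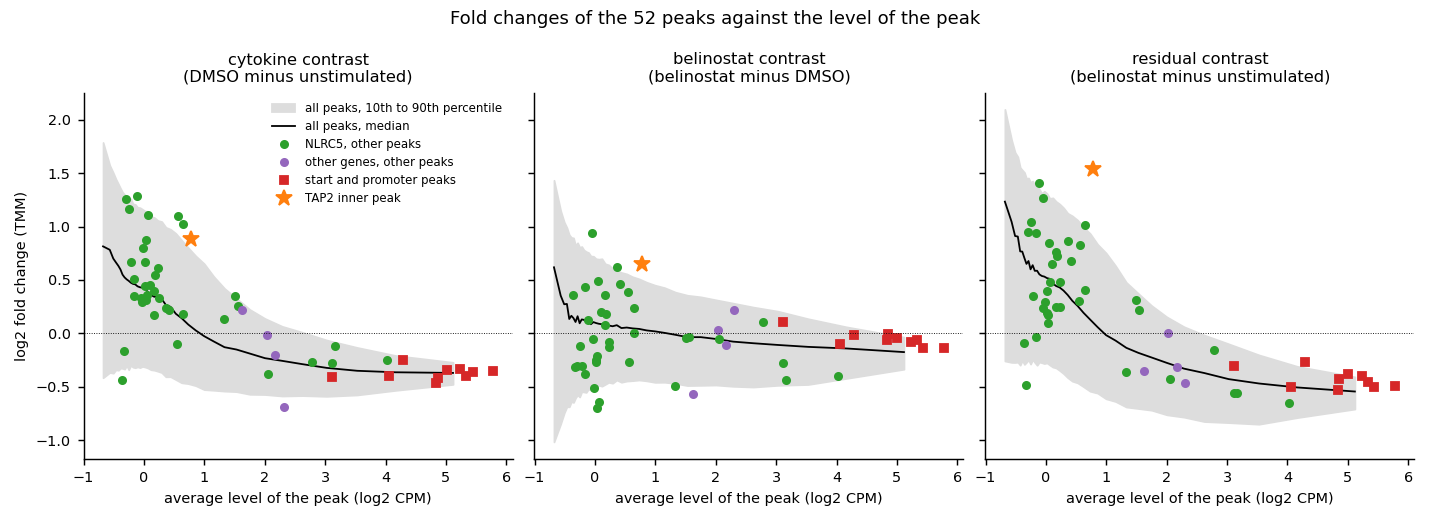
Log2 fold change with TMM (y axis) against the average level of a peak in log2 CPM (x axis) for the 52 members (coloured symbols) in the 3 contrasts, over the median and the 10th to 90th percentile of all peaks. Start peaks lie along the falling median of strong peaks, and most NLRC5 peaks lie among weak peaks. Of the 38 NLRC5 peaks, 29 lie above 0 in the cytokine contrast, 14 in the belinostat contrast and 28 in the residual contrast. Of all 334857 peaks, 193210, 170428 and 199554 do so, and of the weaker 50% (167428 peaks) 130370, 96679 and 134945. The TAP2 inner peak (star) lies above the 90th percentile in the residual contrast.

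The belinostat contrast, belinostat minus DMSO, found no call among the members: 0 of 52 peaks opened and 0 closed (edgeR; at an unadjusted p under 0.05, 2 were higher and 4 lower, and DESeq2 called 0 of the 26 members it gave an adjusted p). Few peaks were called anywhere, with 0.607% of all peaks opened, 1.75% closed and 0.784% of all start peaks closed. The 9 start peaks changed by -0.14 to 0.11, each with an SE of 0.10 to 0.15. TAP1 (-0.14 ± 0.10, adjusted p = 0.527) and TAP2 (-0.14 ± 0.11, adjusted p = 0.528) had the lowest values, and the HLA-B start peak (0.11 ± 0.15, adjusted p = 0.756) the highest. With loess offsets all 9 lay above 0, between 0.05 and 0.22, and again none was called, the smallest adjusted p among them being 0.244 for HLA-C. Of all 14542 start peaks, 9342 lay above 0 on this scale, with a median of 0.05. Of these 14542, 1.53% opened and 0.502% closed. Among all members the smallest p belonged to an intronic NLRC5 peak described below.

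The residual contrast, belinostat minus unstimulated, showed the members after both treatments, and shares its groups with the contrasts above. Here 12 members closed and 6 opened, beside 13.7% of all peaks closed and 16.8% opened. Of the start peaks, 7 of 9 closed, beside 61.9% of all start peaks and 94.8% of the strongest 5% of peaks. The median change of the 9 was -0.46, compared with -0.43 over all start peaks and -0.53 over the strongest 5% of peaks. PSMB8 (-0.53 ± 0.11, adjusted p = 8.43e-05) and TAP1 (-0.49 ± 0.10, adjusted p = 9.78e-05) fell without overlap between groups, and TAP2 (-0.50 ± 0.11) and NLRC5 (-0.50 ± 0.12) fell by as much with overlap. HLA-C (-0.46 ± 0.11), the HLA-B promoter peak (-0.43 ± 0.11), B2M (-0.40 ± 0.11) and HLA-E (-0.38 ± 0.11, again without overlap) were also closed. HLA-F (-0.27 ± 0.12, adjusted p = 0.0587) and the HLA-B start peak (-0.31 ± 0.15, adjusted p = 0.0946) did not pass, although both did without belinostat library 1.

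Removing the trend with strength turned the sign for several members. With loess offsets 3 start peaks were called opened in the residual contrast: HLA-F (0.26 ± 0.08, adjusted p = 0.0271), HLA-E (0.20 ± 0.06, adjusted p = 0.0357) and B2M (0.19 ± 0.06, adjusted p = 0.0262), where 6.75% of all start peaks opened. TAP1 stood at 0.15 ± 0.05 (adjusted p = 0.0635), while PSMB8 (0.03 ± 0.07) and NLRC5 (-0.00 ± 0.09) stayed near 0. Including the TAP2 inner peak, 4 members opened and 0 closed (1 lower at an unadjusted p under 0.05), beside 3.82% of all peaks opened and 4.93% closed. For HLA-E and B2M the called direction thus depended on the scaling. HLA-F, not called with TMM over all peaks, was closed with TMM factors from the weaker 50% of peaks (-0.84) and opened with loess offsets.

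**Figure D3:**
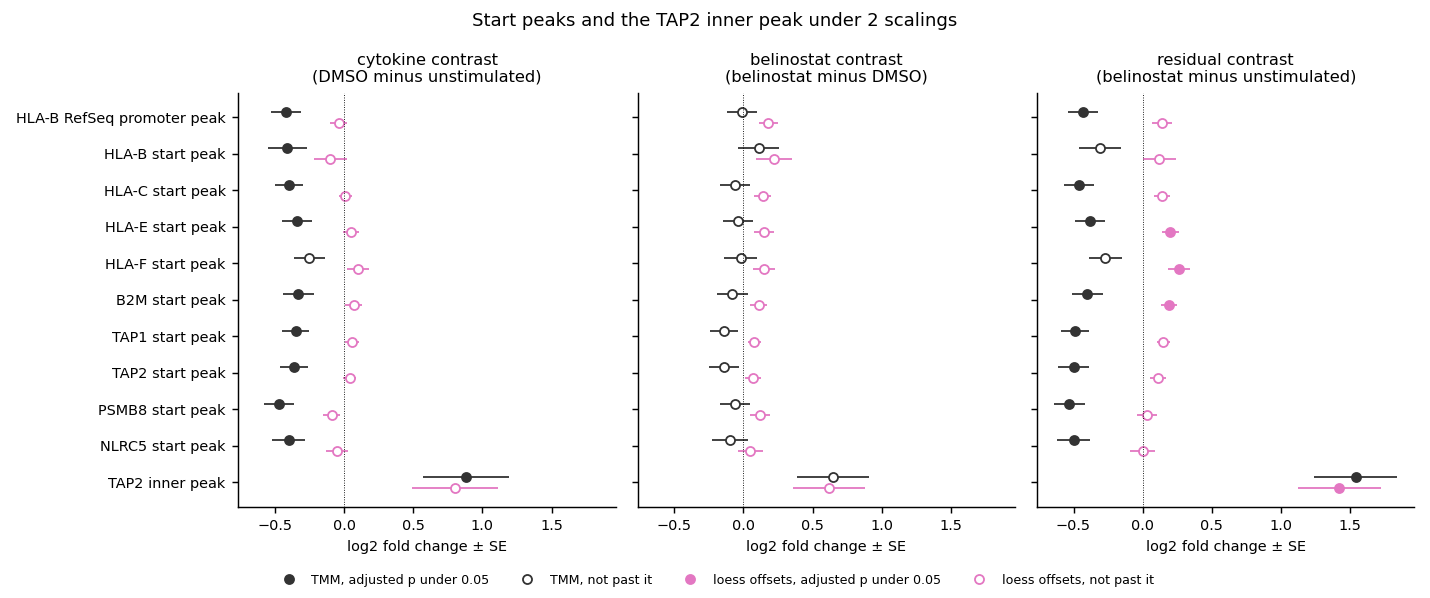
Log2 fold change ± SE (x axis) of the start peaks, the HLA-B promoter peak and the TAP2 inner peak (y axis) in the 3 contrasts, with TMM (dark) and with loess offsets (pink); filled symbols passed an adjusted p of 0.05. Loess offsets bring the cytokine changes of the start peaks to within -0.10 and 0.10, whereas the TAP2 inner peak stays at 1.42 in the residual contrast.

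The TAP2 inner peak had the highest residual change of the 52 members. It is a weak peak of 790 bp (chr6:32829014-32829803), centred 9.3 kb into TAP2 and covering a coding exon of TAP2 with parts of the introns beside it. It touches no annotated UTR, and TAP2 overlaps a readthrough gene (ENSG00000250264) there. The central 300 bases of the peak (hg38, plus strand) are shown because its residual change was the highest among the members. Capitals mark the only match to the searched words within these 300 bases, a Y box word. The whole peak also holds 1 NF-kB word, outside the bases shown.
TAP2 inner peak, centre (chr6:32829258-32829557, plus strand): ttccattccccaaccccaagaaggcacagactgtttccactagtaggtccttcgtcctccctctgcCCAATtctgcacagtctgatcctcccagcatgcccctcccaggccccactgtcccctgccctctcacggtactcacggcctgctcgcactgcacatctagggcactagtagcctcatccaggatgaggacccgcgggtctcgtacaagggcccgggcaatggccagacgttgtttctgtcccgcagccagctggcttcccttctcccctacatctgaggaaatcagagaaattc

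The counts at this peak were few. Unstimulated libraries held 7, 5, 5, 6, 8 and 3 counts, DMSO libraries 12, 10, 6, 11, 11 and 13, and belinostat libraries 4, 10, 11, 19, 23 and 15. In CPM this was 0.483, 0.723 and 1.19 (lowest, median and highest) unstimulated, 0.884, 1.48 and 1.74 with DMSO and 0.802, 2.13 and 3.19 with belinostat. Belinostat library 1, at 0.802, was the only library of its group within the unstimulated range. The residual change was 1.54 ± 0.30 (adjusted p = 1.61e-05). Under loess scaling it was 1.42 ± 0.30 (adjusted p = 0.000328). It was called under all 27 alternatives, between 0.95 and 1.84. No other member had a higher residual change on either scale, while 4.77% of all peaks did with TMM and 0.850% with loess offsets. The steps were less certain: 0.88 ± 0.31 in the cytokine contrast (adjusted p = 0.0342, from 0.0122 to 0.312 over the alternatives) and 0.65 ± 0.26 in the belinostat contrast (adjusted p = 0.179). The cytokine call was lost without unstimulated library 2, 4 or 6 or DMSO library 1, 5 or 6. A further peak near the end of TAP2 (chr6:32825912-32826357) did not follow, at 0.22 ± 0.19 in the cytokine contrast and -0.57 ± 0.21 (adjusted p = 0.147) in the belinostat contrast.

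**Figure D4:**
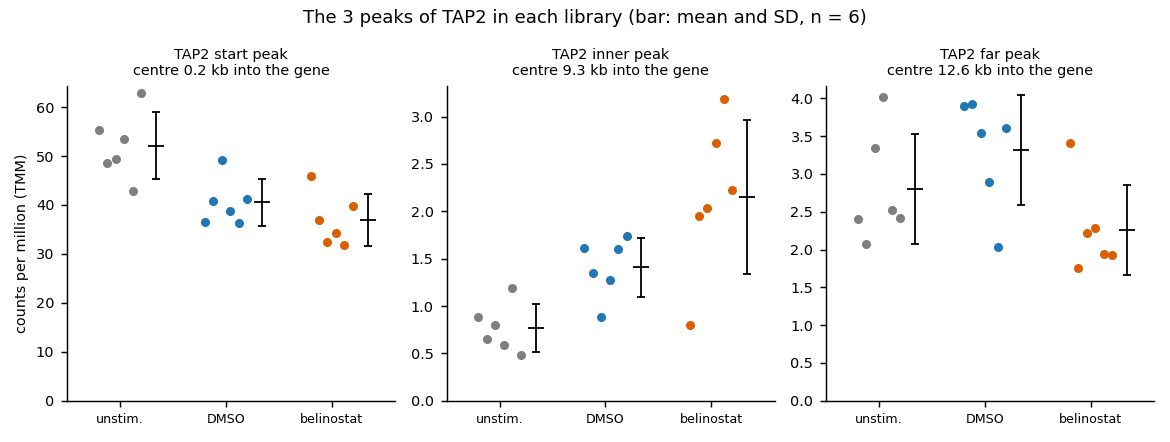
CPM (y axis, from 0, a scale for each panel) in each library (points) at the 3 peaks of TAP2, by group, with mean and SD (bars, n = 6). The start peak is lower after the pulses, the inner peak is higher with medians of 0.723, 1.48 and 2.13, and the far peak shows neither pattern.

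NLRC5, the transactivator, spans many weak peaks, and 21 of its 38 were weaker than the median peak of the table. In the cytokine contrast 5 opened and 1 closed, beside 9.51% and 9.73% of all peaks, the closed peak being the start peak. The opened peak with the smallest p was an exonic peak near the end of the gene (chr16:57077019-57077469), at 0.381, 0.613 and 1.18 CPM unstimulated and 1.08, 1.67 and 2.06 with DMSO (1.10 ± 0.31, adjusted p = 0.00777). Weak peaks rose in general with TMM: the median change of the 21 weak NLRC5 peaks was 0.45, and that of the weaker 50% of all peaks was 0.51. With loess offsets no NLRC5 peak was called in any contrast (edgeR; at an unadjusted p under 0.05, 5 higher and 1 lower in the cytokine contrast).

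In the residual contrast 4 NLRC5 peaks (10.5%) closed and 5 (13.2%) opened, beside 13.7% and 16.8% of all peaks. Of the weaker 50% of all peaks, 23.4% opened. A peak 49.8 kb into the gene, within an intron (chr16:57038844-57039716), was about as strong as the start peak. It measured 16.3, 18.2 and 23.5 CPM unstimulated, 12.5, 16.0 and 19.7 with DMSO and 7.87, 12.3 and 17.4 with belinostat. Its residual change was -0.65 ± 0.13 (adjusted p = 2.42e-05). Loess offsets brought it to -0.15 ± 0.09 (adjusted p = 0.309). In the belinostat contrast it had the smallest p of the members (-0.40 ± 0.13, adjusted p = 0.0768), and it passed there without DMSO library 5 or belinostat library 1.

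**Figure D5:**
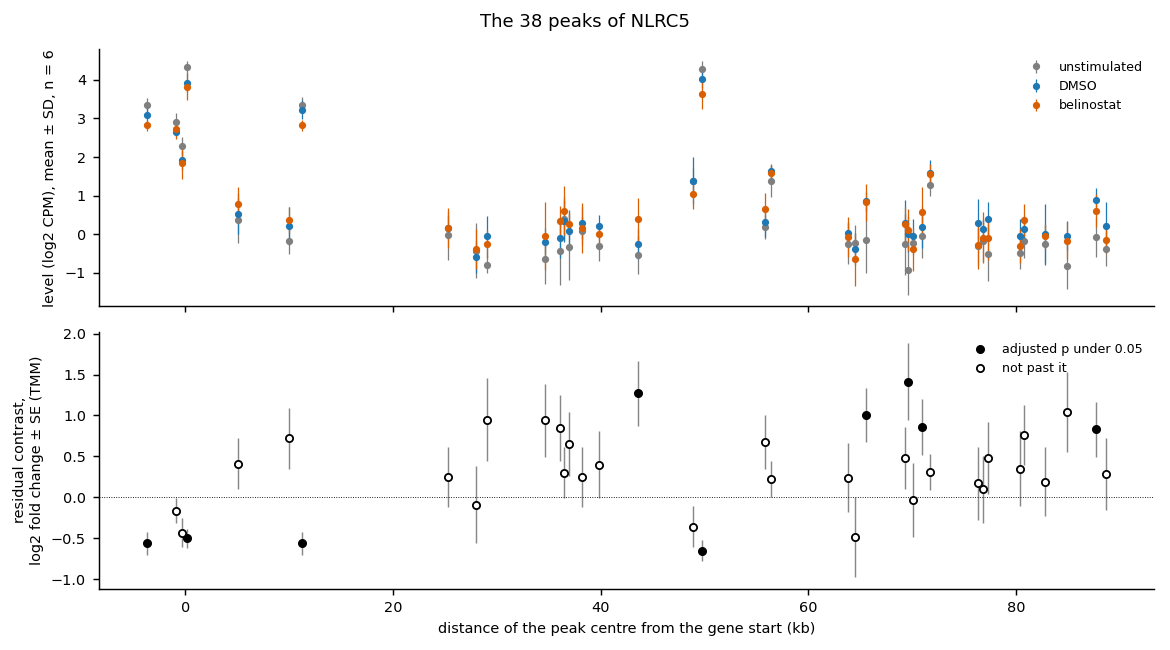
Level (upper panel, log2 CPM, mean ± SD, n = 6 per group) and residual log2 fold change ± SE with TMM (lower panel) of the 38 NLRC5 peaks against the distance of the peak centre from the gene start in kb. The peaks at the start and at 49.8 kb, the strongest of the gene, lie below 0, and the 5 called rises are at peaks weaker than these.

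Summed per gene over the same window, the loci gave a like picture. With TMM, 8 of the 9 member loci closed in the cytokine contrast and 0 opened (0 higher at an unadjusted p under 0.05, and 0 with DESeq2), where 62.0% of 19014 protein-coding loci closed and 10.6% opened. The member median was -0.34, beside -0.26 over all loci. NLRC5 was the locus that did not pass (-0.06 ± 0.07, adjusted p = 0.406). In the belinostat contrast 0 closed and 0 opened (by unadjusted p under 0.05, 1 was lower and none higher, and DESeq2 called 0 of the 6 it gave an adjusted p), beside 1.74% and 0.121% of all loci. In the residual contrast all 9 closed, from -0.20 at NLRC5 to -0.53 at PSMB8, beside 66.3% of all loci closed and 12.8% opened. With loess offsets, 3 member loci opened (HLA-E, HLA-F and B2M) and 0 closed in the residual contrast, where 13.4% of all loci opened and 6.44% closed.

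The other 19 genes of the pathway, taken from a fixed list of heavy chains, proteasome subunits, trimming enzymes, chaperones and regulators, are given as summed loci. In the cytokine contrast 17 closed and 1 opened, beside 62.0% and 10.6% of all loci. Among the closed loci with the smallest p were the chaperone PDIA3 (-0.41 ± 0.08), the immunoproteasome subunit PSMB9 (-0.38 ± 0.08, overlapping TAP1 peaks) and the regulator IRF2 (-0.34 ± 0.07). HLA-G, a non-classical heavy chain, was the locus that opened (0.75 ± 0.17, adjusted p = 0.000731), and is named because it stood alone. With loess offsets 1 of the 19 closed and 0 opened (edgeR, with 2 higher by unadjusted p under 0.05). Of all 19014 loci, 1104 closed and 1397 opened on this scale. HLA-G was not called (0.45, adjusted p = 0.0783). None of the 19 was called in the belinostat contrast with TMM (edgeR, with 4 lower and 0 higher by unadjusted p under 0.05). With loess offsets PDIA3 (0.18, adjusted p = 0.0206) and IRF1 (0.12, adjusted p = 0.0255) opened, beside 473 of all 19014 loci. In the residual contrast 17 closed and 1 opened, beside 66.3% and 12.8% of all loci, with RFXANK, CANX and PSME2 among the closed loci with the smallest p. With loess offsets 2 opened there and 0 closed (edgeR, with 0 lower by unadjusted p under 0.05), beside 13.4% and 6.44% of all loci. The 2 were PSME2 (0.13, adjusted p = 0.0334) and IRF1 (0.11, adjusted p = 0.0134). Both had closed with TMM (-0.54 and -0.38), so their called direction depended on the scaling.

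Over the 18 libraries, the loci most like the members by mean Pearson r of log2 CPM with the 9 member loci were RUNX1 (0.91), SRRM1 (0.91), TYW1 (0.90), PHGDH (0.90) and EFCAB2 (0.90), none of which shares a peak with a member. This likeness is not particular to them: the median over the 15962 loci compared was 0.81, and the members' own mean r with each other ran from 0.68 for NLRC5 to 0.86 for HLA-C. The libraries share the trend with peak strength described above, which enters all of these values.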

How the data were processed

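The authors ran the ENCODE ATAC-seq pipeline on paired-end reads (hg38, peaks by MACS2), joined the peaks of all conditions and used csaw to count fragments per peak. Column names show that duplicates and mitochondrial reads had been taken out, and that lanes were merged. What they deposited are raw counts per peak and library. Each of the 18 count columns matched 1 library, and the labels give no batch.

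Counts were tested with edgeR 4.0.16 (R 4.3.3; glmQLFit with the earlier quasi-likelihood method, glmQLFTest) in 1 fit of 18 libraries with 1 mean per group. TMM factors over peaks replaced the authors' background-bin factors, since reads outside peaks were not used here. The filter of the study, an average log2 CPM over -3, removed 0 peaks (lowest -1.81). Log2 levels used a prior count of 2. The SE of an edgeR fold change was derived from its test, as the absolute log2 fold change over the square root of the F statistic. The all-peak median log2 fold change with TMM was 0.13, 0.01 and 0.20 in the cytokine, belinostat and residual contrasts. Loess offsets (limma 3.58.1; span 0.3) were fitted per library to average peak abundance. They assume no real trend with strength. DESeq2 1.42.0 was an alternative. The edgeR and loess steps were tested on simulated data.

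Start peaks cover the GENCODE gene start or lie within 1 kb of it. For each member the start peak was named, with up to 2 called peaks per contrast by smallest p, and up to 4 called loci of the pathway list. The values of 1 locus of that list are not reported here, although the counts include it. Overlapping genes share peaks, which were not assigned to either gene. HLA genes are polymorphic and alike in sequence, and the effect of this on alignment was not tested. Members and lists were chosen with earlier results of these data known.

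Alternatives to TMM over all peaks were library totals, TMM factors from 10 kb bins, TMM factors from the weaker 50% of peaks, and loess offsets. Others were DESeq2, an average log2 CPM over 0, robust estimation, fits of only the groups compared, a replicate block, gene bodies alone and leaving out each library. Library totals were compared by a two-sided exact permutation test (scipy 1.17.1).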

Additional observations from a re-analysis of the deposited data

How the results depend on the processing

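Scaling decided most counts of called members. With library totals, 4 peaks and 4 loci closed and 1 locus opened in the cytokine contrast. Of all 334857 peaks 10894 closed there, and of all 19014 loci 3656 closed and 3491 opened. In the residual contrast 15 peaks opened, 4 peaks closed and 3 loci closed. Over all features 101897 peaks opened, 21124 peaks closed and 5619 loci closed there. TMM factors taken from the weaker 50% of peaks gave 17 closed members and 0 opened in the cytokine contrast. There 84230 of all peaks closed and 7513 opened. In the residual contrast these factors gave 20 closed members and 1 opened, where 103354 of all peaks closed and 8850 opened. With loess offsets, 0 peaks opened, 0 closed and 0 loci closed in the cytokine contrast. Over all features 6710 peaks opened, 6381 peaks closed and 1104 loci closed there. In the residual contrast 0 peaks and 0 loci closed while 3 loci opened. Over all features 16493 peaks and 1224 loci closed there while 2550 loci opened. DESeq2 gave 2 opened peaks in the cytokine contrast, where 15216 of all peaks opened. The all-peak median log2 fold change moved with the scaling in the cytokine contrast, from 0.34 with library totals to -0.30 with factors from the weaker 50%. The residual rise of the TAP2 inner peak was called under all 27 alternatives.

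Loess offsets turned the direction of these log2 fold changes. Cytokine contrast: HLA-F 0.10, HLA-E 0.05, HLA-C 0.01, TAP2 0.04, TAP1 0.06 and B2M 0.07 at the start peaks, and 0.10 at the intronic NLRC5 peak. Belinostat contrast: HLA-F 0.15, HLA-E 0.15, HLA-C 0.14, HLA-B promoter 0.18, TAP2 0.07, PSMB8 0.12, TAP1 0.08, B2M 0.11 and NLRC5 0.05. Residual contrast: HLA-F 0.26, HLA-E 0.20, HLA-C 0.14, HLA-B promoter 0.14, HLA-B start 0.12, TAP2 0.11, PSMB8 0.03, TAP1 0.15 and B2M 0.19. Library totals turned the belinostat contrast at HLA-F 0.07, HLA-E 0.05, HLA-C 0.02, HLA-B promoter 0.08, PSMB8 0.03 and B2M 0.01, and the residual contrast at HLA-F 0.03. In the belinostat contrast TMM over 10 kb bins gave HLA-F 0.00 and the HLA-B promoter 0.01, and DESeq2 gave the HLA-B promoter 0.01.

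Leaving out each library in turn, 2 to 6 member peaks opened and 6 to 10 closed in the cytokine contrast, with 7 to 8 loci closed. Opened members numbered 2 without unstimulated library 2 and 3 without unstimulated library 6, and 6 closed without the latter. Of all 334857 peaks, 18497 to 35956 opened and 20700 to 37123 closed over these fits. Of all 19014 loci, 10370 to 12342 closed. In the belinostat contrast 0 to 1 peaks closed, 1 without DMSO library 5 or belinostat library 1. There 3900 to 8703 of all peaks closed and 1010 to 2864 opened, with 8703 and 2864 without belinostat library 1. In the residual contrast 3 to 7 peaks opened (3 without unstimulated library 6 or belinostat library 5), 11 to 15 closed and 9 loci closed. There 37404 to 65269 of all peaks opened, 38926 to 50162 closed, and 12125 to 12959 of all loci closed. The other counts stayed at 0. They include the member loci of the belinostat contrast, where 74 to 4120 of all loci closed and 3 to 252 opened. They also include opened member loci, beside 1734 to 2135 of all loci in the cytokine and 2140 to 2612 in the residual contrast. In the belinostat contrast these fits ranged from -0.06 to 0.03 at HLA-F, -0.10 to 0.02 at HLA-E, -0.08 to 0.08 at the HLA-B promoter, -0.03 to 0.20 at the HLA-B start and -0.13 to 0.03 at PSMB8. The difference in counts per library, left-out libraries being chosen after seeing the data, ran from -1503435 to -648493 for DMSO minus unstimulated (exact permutation p = 0.0346 without unstimulated library 3 and 0.0433 without DMSO library 4) and from -1851058 to -1509225 for belinostat minus DMSO.

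Replicate numbers are shared by the groups but did not pair the libraries: over 18 pairs of same-numbered libraries, deviations correlated at r = -0.198 to 0.106, with 2 pairs over 0.1. With the replicate block, 1 member closed in the belinostat contrast (the intronic NLRC5 peak, -0.41, adjusted p = 0.0428 by edgeR). In that fit 6230 of all 334857 peaks closed.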
